A study of Mus musculus with 43 samples.

Results

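The receptors through which neurons sense appetite hormones and feeding peptides were examined in single neurons of the lateral nucleus accumbens that project to the ventral tegmental area (NAcLat→VTA cells). The 10 genes were taken by name from the 35825 genes in the deposited tables: Npy1r, Npy2r and Npy5r for neuropeptide Y, Mc3r and Mc4r for melanocortins, Lepr for leptin, Ghsr for ghrelin, Glp1r for GLP-1, Hcrtr1 for orexin and Mchr1 for melanin-concentrating hormone (MCH). Their values were described in 43 cells, by diet and by batch label. Cells came from young adult male and female mice, C57BL/6J as the methods name the wild-type line, that were kept on standard chow (REG, labelled NORM in the deposited design, 23 cells) or were given high-fat chow beside standard chow for several weeks (HFD, 20 cells). In mice of both diets, fluorescent retrobeads had been placed in the VTA, and the cytosol of bead-labelled cells was aspirated through the patch pipette after whole-cell recording in a brain slice. The batch label put 13 REG and 5 HFD cells in batch 1, and 10 REG and 15 HFD cells in batch 2. The labels give the diet of each cell but not its mouse. Each diet therefore counted as a single sample, and no p-value was formed from cells. Binomial intervals take cells, and Poisson intervals take counts, as independent draws. Neither covers differences between mice, and an overlap of intervals does not show that the diets agree.

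As background, neuropeptide Y and MCH promote feeding when released in the hypothalamus and its targets, whereas melanocortins, leptin and GLP-1 restrain it, and ghrelin and orexin link energy state to arousal and food seeking. All of these receptors except Lepr couple to G proteins. The NPY receptors and the MCH receptor mostly act through the inhibitory Gi class, the melanocortin and GLP-1 receptors raise cyclic AMP through Gs, and Lepr is a cytokine receptor that signals through JAK2 and STAT3. Medium spiny neurons of the nucleus accumbens are a known site of MCH receptor expression, and MCH-containing fibres of the lateral hypothalamus reach the accumbens.

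Mchr1 and Npy1r, 2 of the 10 receptors, carried nearly all of the signal, and the remaining 8 were sparse or without a count. A count of Mchr1 was found in 32 of 43 cells (74.4%, exact 95% interval 58.8 to 86.5%) and of Npy1r in 31 cells (72.1%, 56.3 to 84.7%). Lepr had a count in 15 cells, Npy5r and Mc3r in 7 cells each, Npy2r and Mc4r in 3 cells each, and Glp1r and Hcrtr1 in 1 cell each. Ghsr had no count in any cell; the limit of 3 cells that a count of 0 allows is 6.98% of 43 cells, and the upper bound of the exact interval is 8.22%. A cell held a median of 2 of the 10 receptors (range 0 to 5), with a mean of 2.26 in REG cells and 2.40 in HFD cells. In 3 cells (1 REG and 2 HFD) none of the 10 had a count.

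**Figure D1:**
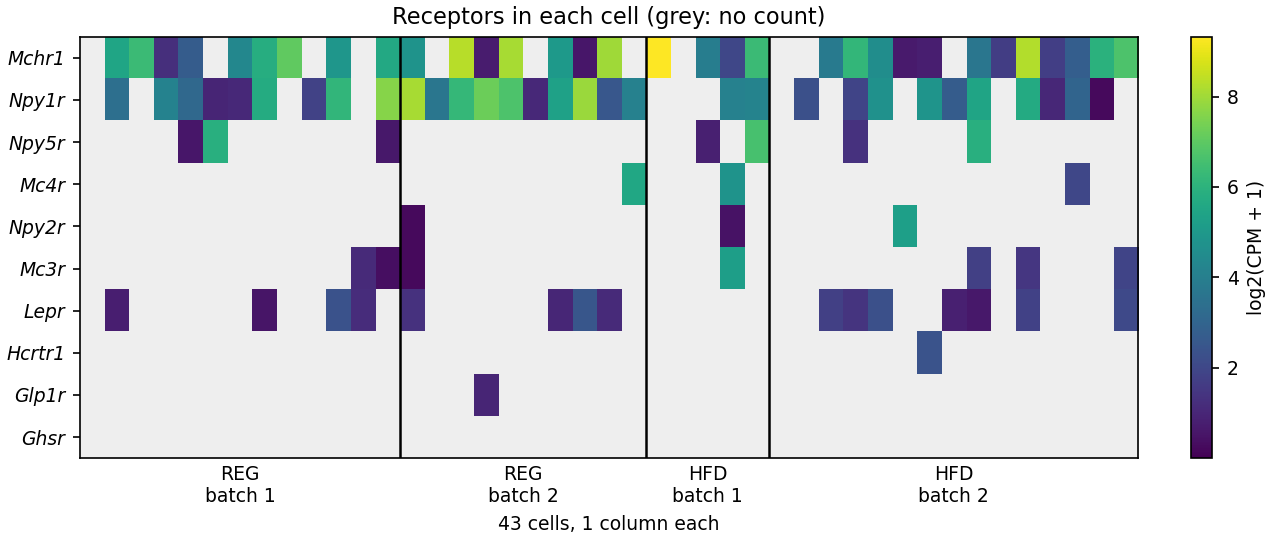
Level of each receptor in each of the 43 cells, as log2(CPM + 1) with CPM the count of a gene per 1000000 counts of the cell; each column is 1 cell, grouped by diet and batch label, and grey marks a cell without a count. Mchr1 and Npy1r fill most columns, Lepr shows scattered dark cells at no more than 4.65 CPM, and the other receptors appear as isolated cells.

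Depth and purity bear on these shares. Cells held 176961 to 16919554 estimated counts (median 1427698 in REG cells and 1416981 in HFD cells), and the mitochondrial leucyl-tRNA synthetase transcript Lars2 took a median of 26.1% of them (range 2.33 to 79.8%). Markers of GABAergic neurons, of D1 medium spiny neurons and of medium spiny neurons in general were detected in 92.8 to 100% of gene and cell pairs in REG cells and in 96.2 to 99% in HFD cells, so markers of the labelled class were present throughout. Summed over its markers, the fibroblast list was at 2.87 to 173 CPM in REG cells and 5.49 to 654 CPM in HFD cells (log2 ratio of means 1.42), the microglial list, none of whose 7 markers was at 0, at 0.341 to 1326 and 2.61 to 1467 CPM (0.79), and the cholinergic interneuron list, with Slc18a3 at 0 in every cell, at 0 to 131 and 0 to 38.4 CPM (−1.22). The same log2 ratio was 0.93 for the D2 medium spiny neuron list (means 61.9 and 118 CPM), 0.87 for the endothelial (402 and 737 CPM) and glutamatergic lists, 0.79 for interneurons with Npy, 0.59 for oligodendrocytes and −0.79 for astrocytes. Genes of other tissues (10 in all), such as Alb, Sftpc and Umod, gave a measure of stray counts: they had a count in 37 of 430 gene and cell pairs (8.60%, 6.13 to 11.7%; 0 to 25.6% of cells for a single gene) and exceeded 15 CPM in 4 pairs. The upper end of the range for single genes was Uox (11 of 43 cells), and the median of the 10 genes was 3.49%. The shares of Npy5r, Mc3r, Npy2r, Mc4r, Glp1r and Hcrtr1 (2.33 to 16.3% of cells) lay inside the range for single genes. Those of Npy5r and Mc3r (16.3%) were above the pooled interval. Lepr lay above the range for single genes at full depth (34.9%). After each cell was thinned to 150000 counts it did not (6.98%, against 0 to 9.30% for the genes of other tissues), whereas Mchr1 (65.1%) and Npy1r (53.5%) stayed above that range.

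Levels of different genes were compared on the deposited TPM, which divides by transcript length. Mean TPM over the 43 cells ran from Mchr1 (46.3; median 9.78) through Npy1r (19.4; median 2.54), Npy5r (4.29), Mc4r (1.02), Npy2r (0.905), Mc3r (0.641), Lepr (0.429), Hcrtr1 (0.0895) and Glp1r (0.0269) to Ghsr (0). The quartile ranges over cells of Mchr1 and Npy1r overlapped, so these neighbours did not differ beyond their spread. From Npy1r down every lower quartile was 0, so the ranges of further neighbours met at 0 in any case. Their overlap therefore cannot show whether they differ. By detection, Npy1r had a count in 31 of the 43 cells and Npy5r, next in the order, in 7. Mchr1 led in both diets and both batches. Mean TPM of Mchr1 was above that of 70.2% of the genes that passed the expression filter, and that of Npy1r above 41.4% of them. In REG cells the mean TPM of Mchr1 and Npy1r was 42.1 and 31.2, and in HFD cells 51.0 and 5.69; there Npy1r ranked below Npy5r (7.44), whose mean came almost wholly from 2 cells.

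To ask how the diet bears on these receptors, mean CPM was compared between HFD and REG cells for genes above 15 CPM in at least 5 cells and with a mean above 4 CPM. Of 10802 genes past this filter, 14.3% were at least 2-fold lower in HFD cells and 9.04% at least 2-fold higher; with edgeR's TMM scaling the split was 12.3% and 13.2%, and with DESeq2 size factors, an alternative chosen after seeing the data, 12.7% and 21.6%. Within each batch separately, 6.04% were at least 2-fold lower and 3.24% at least 2-fold higher in both. The median log2 ratio over these genes was −0.13, and TMM and DESeq2 scaling moved it up by 0.14 and 0.27. Only Npy1r and Mchr1 among the 10 receptors passed the filter; Npy1r was at least 2-fold lower, also within each batch, and Mchr1 was not called. Fewer cells with a transcript and less transcript per cell both lower a mean, so detection is given for each of the 10 receptors.

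Npy1r encodes the Y1 receptor, one of the receptors through which neuropeptide Y stimulates feeding. The gene lies on the plus strand at chr8:66697192-66706792 (GRCm38), with 2 annotated transcripts of 3 to 5 exons, and Npy5r lies 9063 bp away on the opposite strand. In the 13 REG cells of batch 1, Npy1r ranged from 0 to 195 CPM with a median of 2.56, and in the 10 REG cells of batch 2 from 1.12 to 274 CPM with a median of 56.0. The 5 HFD cells of batch 1 gave 0, 0, 0, 16.3 and 16.9 CPM, and the 15 HFD cells of batch 2 gave 0 to 50.6 CPM with a median of 2.72. The highest values were thus all in REG cells: 8 of 23 REG cells exceeded the highest HFD cell, and 5 REG cells but no HFD cell exceeded 100 CPM. The lower parts of the groups overlapped, since 4 REG cells had no count and 6 of 20 HFD cells lay above the REG median of 11.7 CPM.

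REG cells averaged 55.2 CPM of Npy1r (SD over cells 82.4) and HFD cells 9.95 CPM (SD 15.2), a mean 5.55-fold higher on the regular diet (log2 ratio of HFD over REG −2.47). Of the genes past the filter, 171 (1.58%) had a ratio as low or lower. Within batch 1 the means were 27.4 and 6.63 CPM (−2.05), and within batch 2 they were 91.3 and 11.1 CPM (−3.04). Summed over cells, REG cells held 7113 estimated counts (6949 to 7281, exact Poisson) and HFD cells 476 (434 to 521). Relative to the summed totals the log2 ratio was −3.48 (−3.61 to −3.34). These intervals take each count as an independent draw and do not cover the spread between cells. REG replicate 14, the deepest cell, held 4643 of those REG counts but 21.6% of the REG cells' summed CPM, and without it the log2 ratio of means was −2.18. Leaving out any other single cell gave −2.82 to −2.23. TMM and DESeq2 scaling both gave −2.22, while moving the median of all filtered genes up as stated above. Without the 2 REG and 4 HFD cells that had at least 4 of 7 microglial markers above 15 CPM the ratio was −2.87; the part of the other marker lists in it was not tested.

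**Figure D2:**
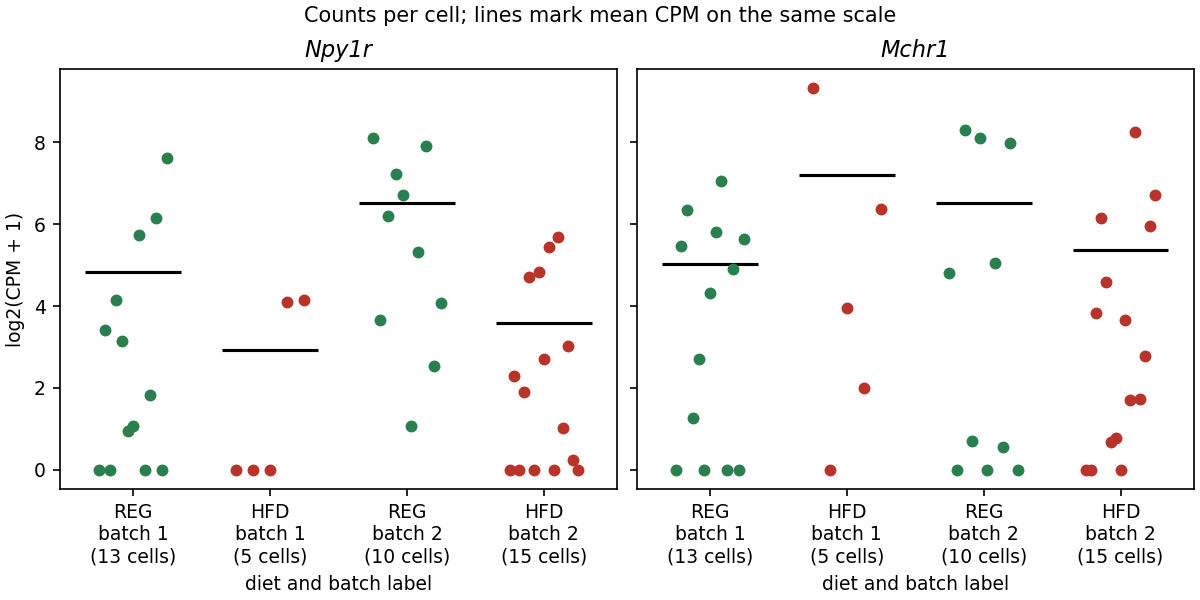
Npy1r (left) and Mchr1 (right) in each cell as log2(CPM + 1), by diet and batch label, with points for cells and lines at the mean CPM of each group on the same scale. For Npy1r the REG lines stand above the HFD lines in both batches, and for Mchr1 the order turns between the batches.

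The share of cells with Npy1r was 19 of 23 in REG cells (82.6%, exact interval 61.2 to 95.05%) and 12 of 20 in HFD cells (60%, 36.1 to 80.9%), and these intervals overlap. With a stricter mark of 15 CPM the counts were 11 REG and 6 HFD cells, and after thinning 15 and 8 cells. By batch, 9 of 13 REG and 2 of 5 HFD cells had Npy1r in batch 1, and 10 of 10 and 10 of 15 in batch 2. After thinning these were 7 and 2 cells in batch 1, and 8 and 6 cells in batch 2. Depth differed within batches, with medians of 1115478 (REG) and 1306908 (HFD) counts in batch 1, and 1884340 and 1426795 in batch 2. Among cells with a count the median of Npy1r was 16.7 CPM on the regular diet against 11.7 CPM on HFD, and the geometric mean gave a log2 ratio of −1.44. This did not hold in both batches: in batch 1 the 9 REG cells had a median of 9.67 CPM and the 2 HFD cells 16.6 CPM, and in batch 2 the 10 REG cells had 56.0 CPM and the 10 HFD cells 6.30 CPM. Small Npy1r counts carry some doubt, because 4.17% of the 31-base words of its transcripts occur in other genes (4286 in all); 23 of the 31 cells had at least 3 counts.

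**Figure D3:**
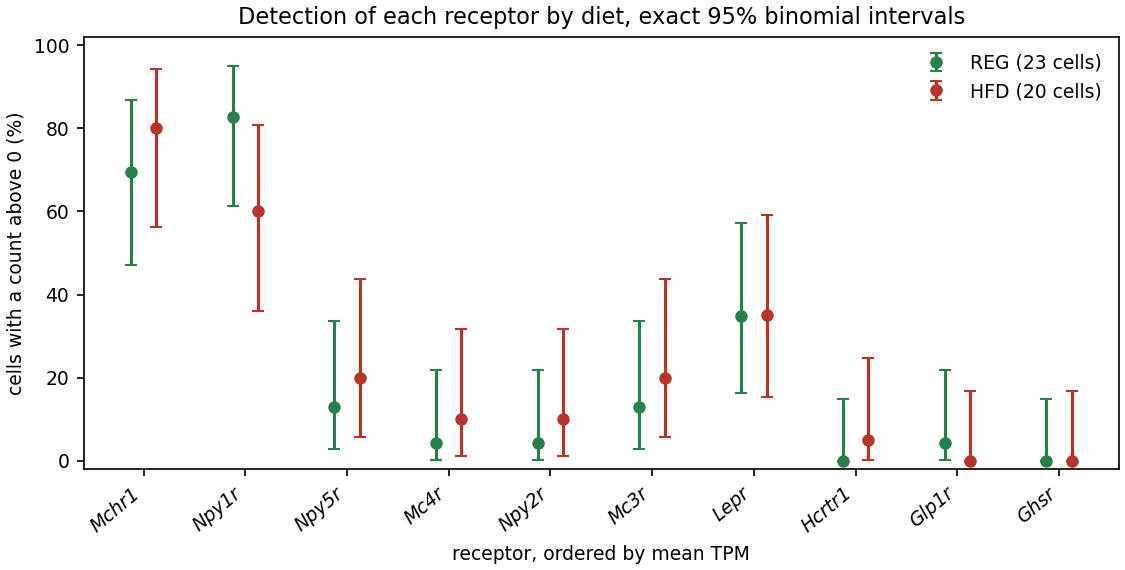
Share of cells with a count above 0 for each receptor, in REG (green) and HFD (red) cells, with exact 95% binomial intervals; receptors are ordered by mean TPM. The intervals, which take cells as independent draws, overlap between the diets for all 10 receptors.

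The other NPY receptors were confined to a few cells each. Npy5r, which encodes the Y5 receptor and shares the Npy1r locus, was at 57.4 CPM in REG replicate 6 and at 97.1 and 57.2 CPM in HFD replicates 5 and 14, and at no more than 1.498 CPM in the 4 other cells with a count. It was thus high in 1 REG cell and 2 HFD cells, and its summed counts of 67 and 499 follow those cells. Of the 7 cells with Npy5r, 6 also had Npy1r (3 of 4 after thinning), set against 31 of 43 cells with Npy1r. Npy2r encodes the Y2 receptor, best known as a presynaptic autoreceptor of NPY neurons. It was at 37.3 CPM (61 counts) in HFD replicate 11, and had 1 count in HFD replicate 4 and 3 counts in REG replicate 14.

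The melanocortin receptors, which bind the POMC product α-MSH and its antagonist AgRP, were as sparse. Mc3r was at 36.8 CPM in HFD replicate 4. The 6 other cells with a count were at 0.180 to 1.19 CPM (3 REG) and at 1.76 to 2.74 CPM (3 HFD). Mc4r was at 46.0 CPM in REG replicate 23 and 26.7 CPM in HFD replicate 4, and had 1 count in HFD replicate 18. HFD replicate 4 was the cell with both melanocortin receptors, and it also held Npy1r, Npy2r and Mchr1, 5 of the 10 receptors; the summed counts of Mc3r (5.06 in REG cells, 133 in HFD cells) largely stem from it.

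Of the receptors for circulating hormones, Lepr was seen in 8 of 23 REG cells (34.8%, exact interval 16.4 to 57.3%) and 7 of 20 HFD cells (35%, 15.4 to 59.2%). Its levels were low throughout, reaching 4.65 CPM on the regular diet and 3.85 CPM on HFD, with summed counts of 46.3 and 48.1. No HFD cell of batch 1 had a count, against 4 of 13 REG cells there. Only 5 cells reached 3 counts, and 3.96% of the 31-base words of Lepr occur in 1223 other genes. Ghsr, the ghrelin receptor, was without a count in both diets, and the limit of 3 counts over all cells together equals 0.0315 CPM. Glp1r, the receptor of the incretin GLP-1, had 3 counts (0.944 CPM) in REG replicate 17. The detection intervals of the diets overlapped for each of these sparse receptors, which does not show that the diets agree. Where the summed counts of these receptors differed, as for Npy5r, Mc3r and Npy2r, 1 or 2 cells held most of the counts. For Mc3r these cells did not carry the whole difference. Its log2 ratio of mean CPM was 4.94, and still 2.35 without HFD replicate 4.

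Hcrtr1, the receptor that prefers orexin A, had 6 counts (4.21 CPM) in HFD replicate 12 and none in REG cells. Mchr1, the only MCH receptor of rodents, lies on the plus strand at chr15:81235499-81238964 (GRCm38), with 1 annotated transcript of 2 exons whose 31-base words occur in no other gene. It ranged from 0 to 133 CPM (median 18.9) in REG cells of batch 1 and from 0 to 316 CPM (median 13.8) in REG cells of batch 2. The 5 HFD cells of batch 1 gave 0, 2.97, 14.5, 81.7 and 639 CPM, and the HFD cells of batch 2 gave 0 to 307 CPM with a median of 5.88. The groups overlapped over nearly their whole range, with 4 REG and 3 HFD cells above 100 CPM and a single HFD cell above the highest REG cell.

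REG cells averaged 57.2 CPM of Mchr1 (SD over cells 94.7) and HFD cells 67.1 CPM (SD 152), a log2 ratio of 0.23. Single cells set the sign of this value: HFD replicate 1, a shallow cell with 114 counts of Mchr1, made up 47.7% of the HFD cells' summed CPM, and without it the ratio was −0.63. Without HFD replicate 16 it was −0.073, and leaving out other cells gave at most 0.56. The batches went opposite ways, at 2.21 in batch 1, where that cell made up 86.6% of the HFD sum, and −1.17 in batch 2. A turn of sign between batches was common, as it was found for 50.2% of filtered genes, and 8.47% were at least 2-fold apart in opposite directions. The share of cells with Mchr1 was 16 of 23 in REG cells (69.6%, 47.1 to 86.8%) and 16 of 20 in HFD cells (80%, 56.3 to 94.3%); above 15 CPM it was 12 and 7 cells, and after thinning 14 cells in each diet. By batch, 69.2% of REG and 80% of HFD cells had Mchr1 in batch 1, and 70% and 80% in batch 2; above 15 CPM the shares were 53.8% and 40% in batch 1, and 50% and 33.3% in batch 2. The share of cells with Mchr1 was thus the higher one in HFD cells with any count as the mark and the lower one at 15 CPM, in both batches, with overlapping intervals.

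**Figure D4:**
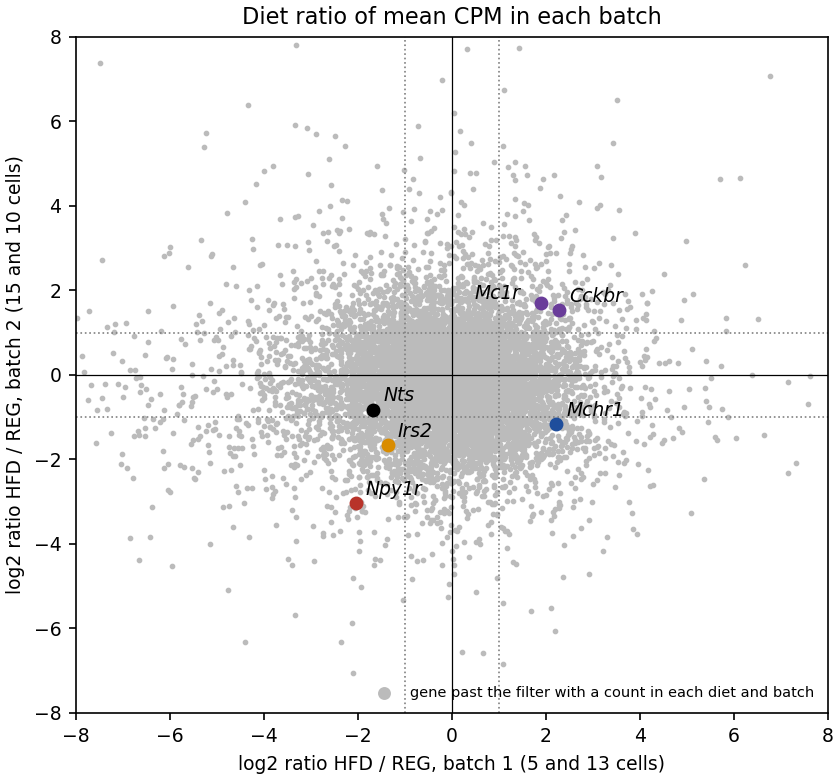
Log2 ratio of mean CPM in HFD over REG cells within batch 1 (x axis) and batch 2 (y axis); grey points are the 10654 filtered genes with a count in each diet and batch (21 lie outside the axes), dotted lines mark 2-fold, and genes named in the text are coloured. Npy1r lies in the lower left at −2.05 and −3.04, and Mchr1 in the lower right at 2.21 and −1.17.

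Npy1r and Mchr1 were found together in 24 cells (14 REG and 10 HFD), Npy1r alone in 7, Mchr1 alone in 8 and neither in 4. Above 15 CPM, 10 cells had both, 7 Npy1r alone, 9 Mchr1 alone and 17 neither. Across the 43 cells their CPM values had a Spearman correlation of 0.21. Each also went with the total count of the cell (0.45 for Npy1r, 0.39 for Mchr1), a property shared by all genes of a library, so the correlations here are descriptions only. The genes most like Npy1r over the 43 cells were Mal2 (0.59), Glrb (0.57) and Kirrel3 (0.57), and those most like Mchr1 were St8sia3 (0.67), Cldn12 (0.60) and Ube4b (0.57). Nts, the neurotensin gene, had a correlation of 0.37 with Npy1r (0.21 within REG and 0.33 within HFD cells) and 0.09 with Mchr1. All 31 cells with Npy1r had a count of Nts, as did 40 of the 43 cells; Nts averaged 764 CPM on the regular diet and 269 CPM on HFD (log2 ratio −1.51; −1.68 and −0.83 in batches 1 and 2).

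The wider pathway was described with lists of related genes. Of 30 other receptors and accessory proteins, 9 passed the filter, 0 were at least 2-fold lower and 3 at least 2-fold higher in HFD cells, 2 of them in both batches. Of all filtered genes 14.3% were lower and 9.04% higher by this mark (21.6% higher with DESeq2 size factors), and 3.24% were higher in both batches. The median of the 9 log2 ratios was 0.51, against −0.13 for all filtered genes. Cckbr, the brain receptor for cholecystokinin, averaged 12.1 CPM on the regular diet and 38.7 CPM on HFD (8 of 23 and 10 of 20 cells with a count; log2 ratio 1.68; 2.29 and 1.54 in the batches; 0.95 without HFD replicate 1). Leprot, which is transcribed from the leptin receptor region and limits leptin receptor at the cell surface, had a count in 11 REG and 9 HFD cells, with means of 14.1 and 44.5 CPM (1.66; 2.96 and 0.79 in the batches), but its ratio of summed counts was −0.77. It ends 58039 bp upstream of Lepr, and 8 of its 20 cells also had Lepr. Mc1r had a count in 21 REG and 19 HFD cells, with means of 9.01 and 19.8 CPM (1.13, with 1.89 and 1.69 in the batches, but 0.31 for summed counts). The ratio of means was 0.076 without HFD replicate 2. Mc1r overlaps the genes Gm20388 and Gm38092, and 20.1% of its 31-base words occur elsewhere. Mrap2, an accessory protein of melanocortin and ghrelin receptors, had a count in 36 cells, and Ramp1 and Gpr83 in all 43. Ramp1, a partner of the calcitonin receptor family, had means of 313.5 and 186 CPM (−0.75), and Gpr83, an orphan receptor linked to energy balance, 232 and 157 CPM (−0.57, but 0.22 for summed counts). Npy4r, Npy6r, Mc2r, Mrap, Gcgr, Nmur2 and Brs3 had no count in any cell.

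Among 11 genes for the ligands and the ghrelin acylating enzyme Mboat4, only Npy passed the filter and none was called. Of all filtered genes 14.3% were lower and 9.04% higher, and 1 gene past the filter is too few to set against these shares. Npy had a count in 4 of 23 REG and 9 of 20 HFD cells (means 9.88 and 14.05 CPM; log2 ratio 0.51, but −5.11 in batch 1 and 2.80 in batch 2). Both Npy and Npy1r had a count in 9 cells. Pomc had a count in 8 REG and 3 HFD cells, Ghrl in 6 and 2, Mboat4 in 3 and 1, and Lep in 1 and 1. Pyy and Agrp had one in 1 REG cell each, and Gcg, Hcrt, Pmch and Ppy in none. The shares of Pomc (25.6% of all cells) and Ghrl (18.6%) did not exceed those of single genes of other tissues (0 to 25.6%). The log2 ratio of Pomc turned between the batches (2.31 and −4.35). Of 13 genes for G proteins and effectors, 12 passed the filter and none was called, against 14.3% lower and 9.04% higher of all filtered genes, with a median of −0.18. The highest ratio was that of Gnas, the Gs alpha subunit (89.1 and 178 CPM, 0.997, just under the 2-fold mark, but 1.47 for summed counts). Gnal, the olfactory-type subunit that couples D1 receptors in the striatum, was at 586 and 363 CPM (−0.69, but 0.26 for summed counts). Adcy5, the main striatal adenylyl cyclase, was at 689 and 640 CPM (−0.11, and 0.06 for summed counts). The subunits of the inhibitory Gi class gave ratios of −0.28 (Gnai1), 0.52 (Gnai2), −0.74 (Gnai3), −0.17 (Gnao1) and 0.83 (Gnaz). Gnai3 turned between the batches (0.93 and −2.23), as did Gnao1 (−0.27 and 0.05), and for summed counts Gnai2 was at −0.22 and Gnaz at −0.05.

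Of 9 genes of leptin signalling, 7 passed the filter, 1 was called lower and 1 higher, against 14.3% and 9.04% of all filtered genes, with a median of 0.26 against −0.13. Irs2, an adaptor of insulin and leptin receptors, averaged 96.8 CPM on the regular diet and 40.2 CPM on HFD (23 of 23 and 18 of 20 cells with a count; log2 ratio −1.27; −1.37 and −1.66 in the batches; −1.75 to −1.12 with each cell left out in turn), and 2.13% of its 31-base words occur elsewhere, mostly in the antisense gene 9530052E02Rik that overlaps it and whose reads cannot be told apart where strand is not counted. Stat5b, a transcription factor downstream of JAK2, had a count in 11 REG and 9 HFD cells, with means of 5.91 and 13.3 CPM (1.17; 0.47 and 1.55 in the batches; 0.74 without HFD replicate 9). Jak2 (−0.32) and Stat3 (0.64) were not called, though for summed counts they were at −0.45 and 1.33.

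**Figure D5:**
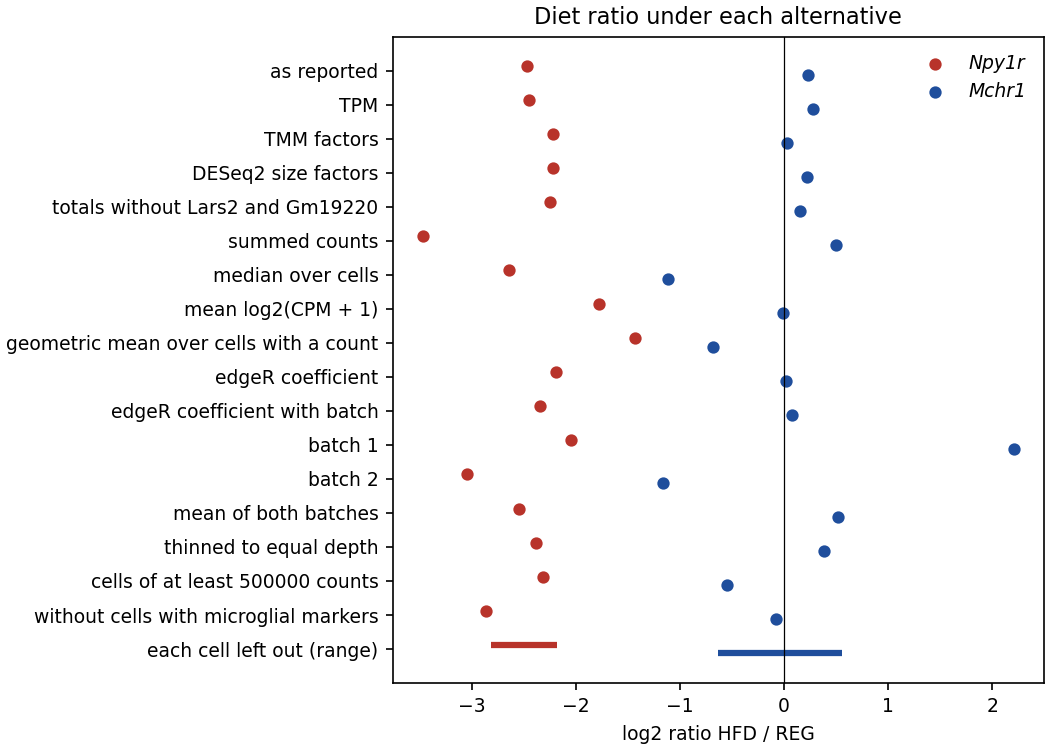
Log2 ratio of HFD over REG for Npy1r (red) and Mchr1 (blue) as reported and under each alternative summary, scaling and set of cells; bars at the bottom give the range with each cell left out in turn. All Npy1r values lie below 0, from −3.48 to −1.44, and the Mchr1 values lie on both sides of 0, from −1.17 to 2.21.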

How the data were processed

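Each library was the poly-A RNA of 1 cell, prepared by the authors with SMART-seq and Nextera XT kits and pseudo-aligned with kallisto to the Ensembl transcriptome of GRCm38. The authors deposited estimated counts, which need not be whole, and TPM values per gene; they excluded cells with few reads or genes, compared diets with edgeR, and applied the expression filter used here. Diet and batch came from the labels. CPM is the estimated count of a gene divided by the total of its cell, times 1000000. Because the mouse of a cell is not named, no test was run: the ratio of mean CPM was taken with no pseudocount, shares carry Clopper-Pearson and sums Poisson intervals (95%), and genes were called at 2-fold. Counts were rounded for the edgeR 4.0.16 and DESeq2 1.42.0 scalings (R 4.3.3), whose values are alternatives without a p. The calculation of the ratio was checked on simulated counts with known changes. Those cells were drawn independently, without mouse or batch effects, so the check does not bear on the diet comparison itself. Cells were thinned to 150000 counts without replacement. Shared 31-base words and positions were read from GENCODE annotation of GRCm38. Named genes are the 10 receptors, the fixed lists of related genes, and the 3 genes most like a receptor by Spearman correlation, detected in at least 20 cells. The members and lists were chosen with earlier results of these data known.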

Additional observations from a re-analysis of the deposited data

How the results depend on the processing

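The diet ratio of Npy1r was below 0 under all 16 alternatives and with each of the 43 cells left out (−2.82 to −2.18). It was −2.22 with TMM and with DESeq2 factors, −2.25 with Lars2 and Gm19220 left out of the totals, −3.48 for summed counts, −2.64 for medians, −1.77 for mean log2(CPM + 1), −1.44 for the geometric mean over cells with a count, −2.19 for the edgeR coefficient, −2.05 in batch 1, −3.04 in batch 2, −2.31 in cells of at least 500000 counts and −2.87 without cells with microglial markers. That of Mchr1 was below 0 under 6 of 16 alternatives and ran from −0.63 to 0.56 with single cells left out. It was 0.028 with TMM, 0.50 for summed counts, −1.12 for medians, −0.012 for mean log2(CPM + 1), −0.69 for the geometric mean, 0.020 and 0.072 for the edgeR coefficient without and with batch, 2.21 and −1.17 in batches 1 and 2, 0.52 for the mean of the batches, 0.39 after thinning, −0.55 in deep cells and −0.079 without cells with microglial markers. Mc1r turned to −0.35 for medians and −0.44 in deep cells, and Leprot to −0.77 for summed counts; the cause was not tested. Npy1r was above 15 CPM in 47.8% of REG and 30% of HFD cells and had a count in 100% of REG cells of batch 2, and Mchr1 was above 15 CPM in 35% of HFD cells. The share of genes at least 2-fold lower was 23.5% without a filter and 23.9% in batch 1, and that of genes at least 2-fold higher 16.7%, 18.3% and, with DESeq2 factors, 21.6%. The TPM of Mchr1 over that of Npy1r was 2.39 for means, 3.86 for medians, 3.73 in batch 1 and 1.90 in batch 2.

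No paired analysis was possible because no label ties cells to mice, and a cell's number is only a name. Depth limits the sparse receptors: in the shallowest cell, of 176961 counts, a transcript at a few CPM can be missed, and batch and diet are unevenly crossed.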
